A study of Mus musculus with 6 samples.

Results

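The amyloid precursor protein gene App, its relatives Aplp1 and Aplp2, and 6 genes of the enzymes that cut their proteins (Adam10, Bace1, Bace2, Psen2, Ncstn and Aph1b) were followed through the cell classes and clusters of the mouse hippocampus. These 9 genes were taken by name from the 26049 genes of the deposited matrix, with no threshold on a measured value. All 28650 nuclei came from male PS19 mice, which carry a human Tau P301S transgene, a disease mutant of tau driven by the mouse prion promoter. Every group carried that transgene, so no comparison with non-transgenic mice was made, and the genotype label names no App transgene, so App here is the gene of the mouse itself. Injured mice had a controlled cortical impact over the right hemisphere (traumatic brain injury, TBI, of mild degree), and the others were sham-operated. All received an adeno-associated virus coding for GFP (AAV-GFP, the control) or for the lymphatic growth factor VEGF-C (AAV-VEGFC). Sham mice gave 2 libraries, sham GFP and sham VEGFC, both from the right hippocampus. Injured mice gave 4, from the right and the left hippocampus with each vector, called TBI GFP right, TBI GFP left and likewise for VEGFC. No combination was repeated, and the labels give neither the age of the mice nor how many mice entered a library. P-values thus cover these libraries only and do not measure the spread among mice. They rest largely on a spread borrowed from other genes.

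App is a membrane protein that is cut in steps. Adam10, the main alpha-secretase of neurons, cuts it within the amyloid beta stretch and so prevents that peptide, while Bace1, the beta-secretase, cuts at its start. The remaining stump is cut inside the membrane by gamma-secretase, a complex whose catalytic part can be Psen2, with nicastrin (Ncstn) as its large outer subunit, and Aph1 and Psenen as its other parts. Bace2 is the close relative of Bace1, and is best known outside the brain. Aplp1 and Aplp2 are processed by the same enzymes and do not hold the amyloid beta sequence.

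The libraries held 3676 to 6002 nuclei and 15358208 to 18379148 unique molecular identifiers (UMIs, the counted RNA molecules), with a median of 2689 to 3704 UMIs per nucleus. The authors' annotation gave 9 classes and 32 clusters. In CPM (UMI counts scaled to the same total) pooled over libraries, the myelin gene Mbp was 3839 in oligodendrocytes, 13.5 in astrocytes and 47.7 in microglia. The microglial receptor gene Csf1r was 686 in microglia and at most 8.29 in any other class. The class labelled fibroblast was mixed by its markers: the fibroblast list summed to 699 to 1039 CPM, the pericyte list to 273 to 450, the endothelial list to 222 to 385 and the astrocyte list to 1357 to 2443. Its values are given under that label. Nuclei of different libraries shared 91 barcodes (182 nuclei). All levels are scaled to the UMIs of the class in that library. A level is thus relative to the other RNA of the class, and levels of different genes are not compared, since they are not per length.

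The 3 substrates of the secretases lie on 3 chromosomes of mm10, App at chr16:84949685-85173766, Aplp1 at chr7:30434982-30445535 and Aplp2 at chr9:31149557-31211815, all on the minus strand. All 3 had their highest median level in the same class, so the stretch before their RefSeq start (GRCm38.p6) is shown, 5′ to 3′ on the minus strand, with GGGCGG or its reverse complement CCGCCC (the GC box, read on both strands) in capitals. For App the stretch ends where its annotated first exon begins (chr16:85173767-85173957). For Aplp1 (chr7:30445583-30445832) and Aplp2 (chr9:31211849-31212098) it is the full 250 bases, which overlap none of their annotated exons.

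App: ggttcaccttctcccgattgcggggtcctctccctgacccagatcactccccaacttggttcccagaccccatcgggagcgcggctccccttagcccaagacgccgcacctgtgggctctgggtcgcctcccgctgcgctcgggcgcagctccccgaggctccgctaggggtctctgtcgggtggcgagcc

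Aplp1: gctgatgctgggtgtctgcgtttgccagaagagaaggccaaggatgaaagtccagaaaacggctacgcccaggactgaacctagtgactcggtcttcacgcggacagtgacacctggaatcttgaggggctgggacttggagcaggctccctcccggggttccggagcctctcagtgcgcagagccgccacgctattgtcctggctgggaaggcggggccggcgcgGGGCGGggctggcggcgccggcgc

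Aplp2: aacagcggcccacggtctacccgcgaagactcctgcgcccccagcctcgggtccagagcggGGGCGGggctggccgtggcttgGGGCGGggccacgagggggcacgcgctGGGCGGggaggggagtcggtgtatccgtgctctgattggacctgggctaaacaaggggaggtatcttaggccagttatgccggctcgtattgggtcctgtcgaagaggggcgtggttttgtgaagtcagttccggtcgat

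The Aplp2 stretch held 3 GC boxes, the Aplp1 stretch 1, and the App stretch shown none, while the full window of 250 bases, with the 59 exon bases left out above, held 1. A GC box was found in 32.7% of 32851 RefSeq mouse windows of 250 bases. TATAAA, searched on the gene's strand, was in none of the 3 windows and in 7.59% of all. G and C made up 70.8% of the App window, 66.0% of the Aplp1 window and 66.4% of the Aplp2 window, against a median of 52.4% over all windows. A match describes letters and says nothing of binding.

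App was highest in oligodendrocytes, the myelin-forming glia, in every library. Its level there was 1399 CPM in sham GFP, 1552 in sham VEGFC, 1403 in TBI GFP right, 1392 in TBI GFP left, 1511 in TBI VEGFC right and 1533 in TBI VEGFC left. No other class passed 681 CPM in any library, so the ranges did not overlap, and oligodendrocytes were 2.05 to 2.73 times above the next class of the same library. The lowest class was the astrocytes, at 172 to 215 CPM, which lay below the range of every other class. Between these ends, in order of their medians, came fibroblasts (481 to 601 CPM), inhibitory neurons (567 to 598), mixed neurons (495 to 681), choroid plexus epithelium (430 to 558), excitatory neurons (418 to 472), oligodendrocyte precursors (OPC, 278 to 438) and microglia (236 to 309). Each class in this order overlapped the next. Farther apart in the order, fibroblasts, inhibitory neurons and mixed neurons lay above excitatory neurons, OPC and microglia without overlap.

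The classes were built by the authors from the same counts, so a class against the rest is described and not tested. After each nucleus was thinned to 1000 UMIs, App was seen in 74.5% of oligodendrocyte nuclei and in 17.0% of astrocyte nuclei. Unthinned, the shares were 83.2% and 27.6%, at median depths of 1307 and 1671 UMIs. Oligodendrocytes held 9.80% of all App UMIs against 3.23% of all UMIs, and excitatory neurons 52.8% against 57.0%. Most App UMIs thus came from excitatory neurons, while the level relative to the class's other RNA was highest in oligodendrocytes.

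Aplp1, which among the 3 relatives is known mainly from the nervous system, showed the same highest class with a wider gap. Oligodendrocytes had 630 CPM in sham GFP, 573 in sham VEGFC, 479 in TBI GFP right, 616 in TBI GFP left, 618 in TBI VEGFC right and 665 in TBI VEGFC left. The highest value of any other class was 202 CPM, in microglia of sham VEGFC, and the ratio to the next class was 2.83 to 4.76. The other 8 classes ran from a median of 90.0 CPM (fibroblasts) to 140 (excitatory neurons). Among them, excitatory neurons lay above astrocytes, choroid plexus and inhibitory neurons without overlap, as did mixed neurons above choroid plexus and inhibitory neurons, and all other pairs overlapped. Thinned, Aplp1 was seen in 44.2% of oligodendrocyte nuclei and 14.3% of excitatory neuron nuclei. Unthinned, the shares were 55.0% and 45.9%, at median depths of 1307 and 4222.5 UMIs.

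App and Aplp1 were the 2 of 9 members with a class above all others without overlap. Of 17416 genes with at least 1 CPM over all nuclei, 20.6% had such a class, and 3.14% had oligodendrocytes as that class. The share of members with such a class was near the first background, and only 2 genes stand behind it. A class of astrocytes below all others, as for App, was found in 0.0632% of these genes. Astrocytes were looked up because App was lowest there. The share of genes with any class below all others is larger or equal and was not taken, so how rare the trait is stays unknown.

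Aplp2, the widely expressed relative, was more even. Its median was highest in oligodendrocytes (291 CPM, 251 to 314), followed by fibroblasts (271, 196 to 375), inhibitory neurons (233, 214 to 246), OPC (232, 183 to 244) and microglia (230, 157 to 331). Oligodendrocytes led in 3 of 6 libraries and overlapped with fibroblasts and microglia, but lay above inhibitory neurons and OPC without overlap. Excitatory neurons were lowest in median (134 CPM, 131 to 148). Inhibitory neurons lay above them without overlap.

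**Figure D1:**
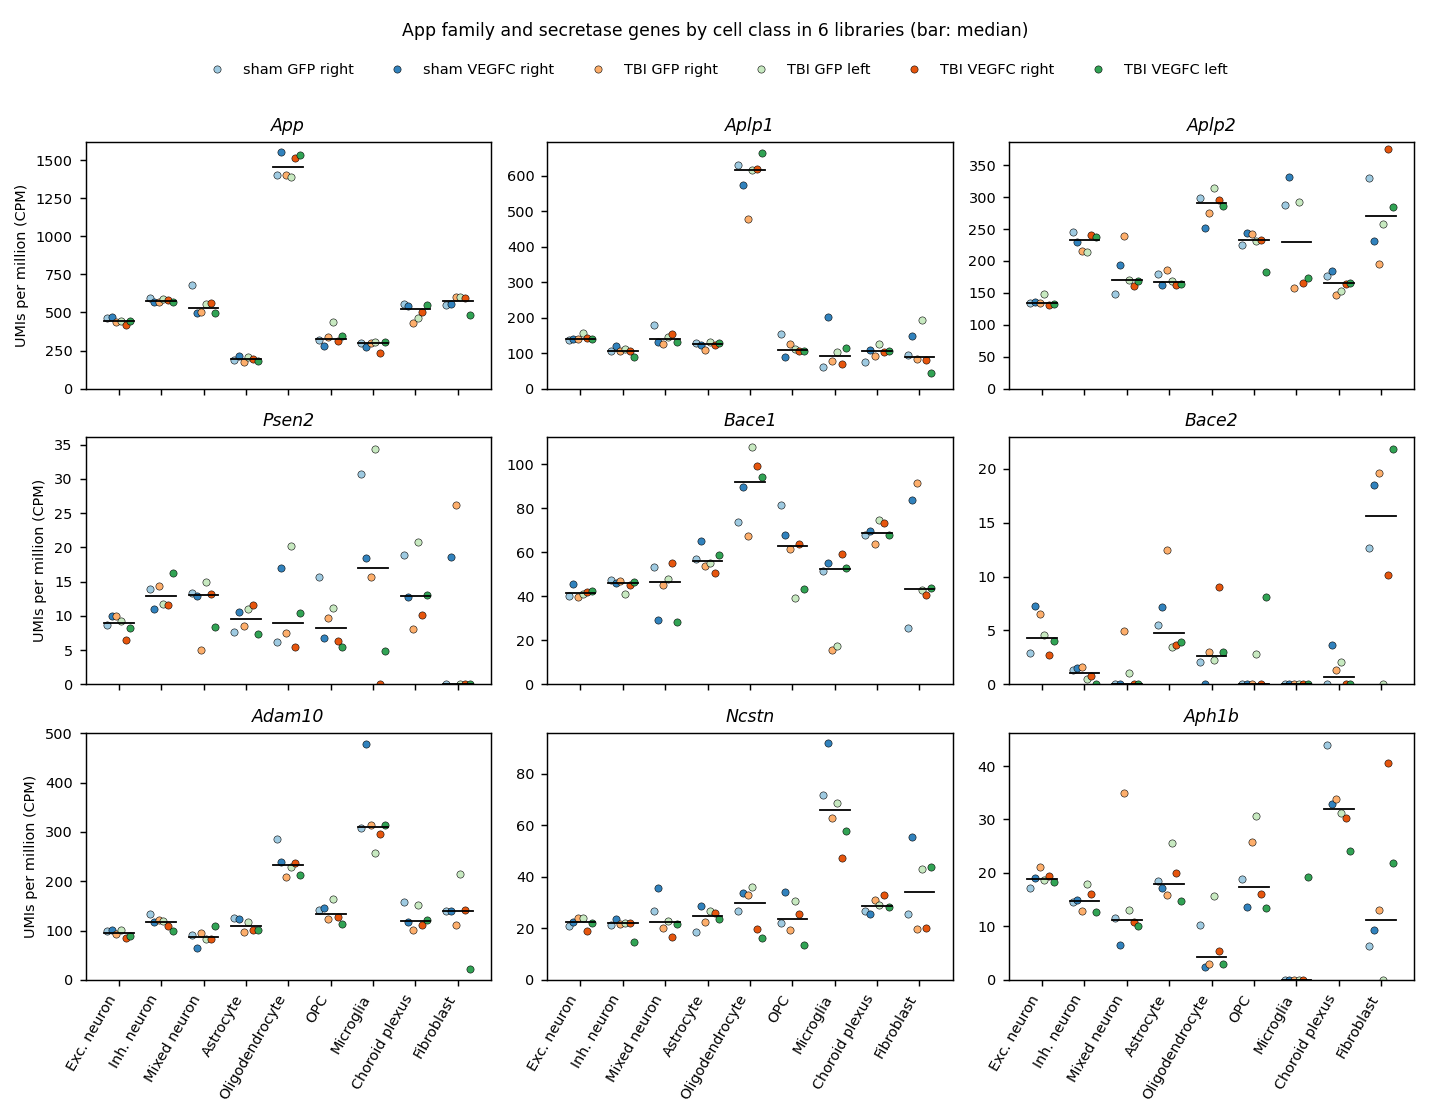
Levels of the 9 genes (y axis, CPM within the class) in 9 cell classes (x axis), with 1 point per library and a bar at the median of 6. App (1392 to 1552 CPM) and Aplp1 (479 to 665 CPM) in oligodendrocytes stand above all other points of their panels, while Bace2 and Psen2 panels hold many points at or near 0.

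Adam10, the alpha-secretase (chr9:70678997-70780229, plus strand), had its highest level in microglia. Its stretch before the start (chr9:70678732-70678981, GRCm38.p6, plus strand) is shown as the secretase with the most GC boxes among those matched in the RefSeq table, which held 7 of the 9 members.

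Adam10: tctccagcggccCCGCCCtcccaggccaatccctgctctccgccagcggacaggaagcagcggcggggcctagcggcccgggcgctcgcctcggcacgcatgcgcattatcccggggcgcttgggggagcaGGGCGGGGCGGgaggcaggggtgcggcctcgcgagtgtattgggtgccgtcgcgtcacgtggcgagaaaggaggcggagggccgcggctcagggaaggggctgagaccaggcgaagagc

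It held 3 GC boxes, 2 of them overlapping in 1 run of capitals, no TATAAA, and 74.0% G and C. In microglia the level was 307 CPM in sham GFP, 478 in sham VEGFC, 314 in TBI GFP right, 258 in TBI GFP left, 295 in TBI VEGFC right and 313 in TBI VEGFC left. Oligodendrocytes came next at 208 to 286 CPM. Microglia were above them in 6 of 6 libraries, by 1.07 to 2.00 times, though the ranges overlapped. Both glial classes lay above neurons, since excitatory neurons had 85.6 to 101 CPM and inhibitory neurons 99.4 to 134. The microglial values rest on 15 to 65 UMIs per library.

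The beta-secretase Bace1 (chr9:45838580-45864399, plus strand) was again highest in oligodendrocytes in median, with 73.7 CPM in sham GFP, 89.4 in sham VEGFC, 67.4 in TBI GFP right, 108 in TBI GFP left, 99.1 in TBI VEGFC right and 94 in TBI VEGFC left. They led in 4 of 6 libraries, with OPC above them in sham GFP (81.4 CPM) and fibroblasts in TBI GFP right (91.4 CPM, 14 UMIs). Choroid plexus epithelium followed in median, at 63.6 to 74.7 CPM. It was lower than oligodendrocytes in each library, by 1.06 to 1.44 times, though the ranges overlapped. Excitatory neurons had the lowest median, 41.5 CPM (39.8 to 45.6), and lay below the oligodendrocytes, choroid plexus and astrocytes (50.4 to 65.1) without overlap. Bace1 and Rnf214 overlap on opposite strands, and how strand was counted was not given in the sources used here.

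Bace2 (chr16:97356742-97442936, plus strand) was rare, with 2.47 to 5.88 CPM over all nuclei of a library. No Bace2 UMI was found in 406 microglial nuclei, which allows a share of up to 0.739% with a UMI. The class with the highest median was the fibroblasts, at 15.6 CPM, but this rested on 9 UMIs and 1 library had none. Astrocytes had 3.48 to 12.4 CPM and excitatory neurons 2.75 to 7.25. These 2 classes held 16.8% and 70.6% of its UMIs, and the clusters behind these values are described below.

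Of the gamma-secretase genes, Ncstn (chr1:172066013-172082795, minus strand) shared its highest class with Adam10. Microglia had 71.7 CPM in sham GFP, 92.0 in sham VEGFC, 62.8 in TBI GFP right, 68.8 in TBI GFP left, 47.3 in TBI VEGFC right and 57.8 in TBI VEGFC left. They led in 6 of 6 libraries, by 1.32 to 2.68 times, and overlapped only with fibroblasts (19.6 to 55.6 CPM). The counts behind this were small, 4 to 12 UMIs per library. The other classes had medians between 21.9 CPM (inhibitory neurons) and 34.1 (fibroblasts), and most of these overlapped, though choroid plexus (25.6 to 32.9 CPM) lay above excitatory and inhibitory neurons (at most 24.1 and 23.8). Ncstn overlaps Copa on the opposite strand, at the start of Ncstn.

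Psen2, a presenilin gene (chr1:180227004-180263438, minus strand), had 8.20 to 11 CPM over all nuclei. No class stood apart: the medians ran from 0 in fibroblasts to 17.1 in microglia, with 6 and 8 UMIs in all. Among the classes with more counts, inhibitory neurons (11 to 16.3 CPM) were above excitatory neurons (6.41 to 9.97) without overlap.

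Aph1b (chr9:66775202-66795490, minus strand) had its highest median in choroid plexus epithelium, at 32.0 CPM (24.0 to 44.0), above the excitatory neurons (17.1 to 21.2) in every library without overlap. Choroid plexus led in 4 of 6 libraries. Fibroblasts were above it in TBI VEGFC right (40.5 CPM, 4 UMIs) and mixed neurons in TBI GFP right (34.9 CPM, 7 UMIs). Aph1b was lowest in microglia, with 4 UMIs, all in TBI VEGFC left, and in oligodendrocytes, with 20 UMIs and 2.42 to 15.7 CPM. The class with the highest median for App, Aplp1 and Bace1 was thus near the bottom for Aph1b. The neighbouring gene Aph1c is a near copy in part, with 96.1% identity over 2138 aligned bases of the transcripts (Aph1b bases 93 to 2210). Another stretch (bases 4185 to 4665) had 89.1% identity. Both stretches together covered 52.9% of the 4910 bases of the Aph1b transcript. How reads that match both were counted was not given in the sources used here, so Aph1b levels are uncertain.

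Within the neurons, the App family split by cluster. The 32 clusters are named as the authors numbered them, and values are pooled over libraries. The 4 excitatory clusters with over 100 CPM of the dentate granule list (Prox1, Dsp, Plk5 and C1ql2), a limit set after the values were seen, were clusters 2, 3, 8 and 15, with 352 to 463 CPM. Dentate granule cells are the small, densely packed neurons at the entry of the hippocampal circuit. Their 5111 nuclei had Aplp1 at 164 to 248 CPM, above the 89.4 to 139 CPM of the other 12 excitatory clusters. For App the order was turned, at 314 to 383 CPM against 344 to 596, with cluster 16 (41 nuclei) as the only other cluster below 383. Aph1b was also low there, at 4.07 to 13.1 CPM against a median of 17.8 in the others, of which 3 (clusters 6, 10 and 16) fell within that range. The low end came from cluster 15, which had at most 17 nuclei in a library and few counts.

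Aph1b was highest among neurons in excitatory clusters 12, 13 and 1, at 31, 29.3 and 28.3 CPM. Cluster 1, the largest with 2784 nuclei, had 26.7 to 30.3 CPM in the 6 libraries, while cluster 2 (2557 nuclei) had 6.38 to 12.2. These ranges did not overlap. Cluster 1 had the highest sum of the CA1 list among the excitatory clusters, 331 CPM, whereas the CA3 list peaked in cluster 4, at 2247.

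Among inhibitory neurons, App peaked in cluster 3 (734 CPM, 680 to 809 over libraries), the highest of any neuron cluster. Aplp2 peaked in inhibitory clusters 6 (326 CPM) and 8 (295 CPM), and cluster 6 was the highest of all 32 clusters, ahead of oligodendrocytes (287). Adam10 was also high in inhibitory clusters 8 (207 CPM) and 6 (195), and in excitatory clusters 12 (185) and 5 (180) and lowest in excitatory cluster 4 (63.9). Excitatory cluster 16 had 206 CPM from 30 UMIs. Among the astrocytes, App was 170 CPM in cluster 1 and 225 in cluster 3, and their library ranges (144 to 198 and 207 to 245) did not overlap. The myelin marker Mbp was 41.5 CPM in excitatory neurons and 26.1 in inhibitory neurons.

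**Figure D2:**
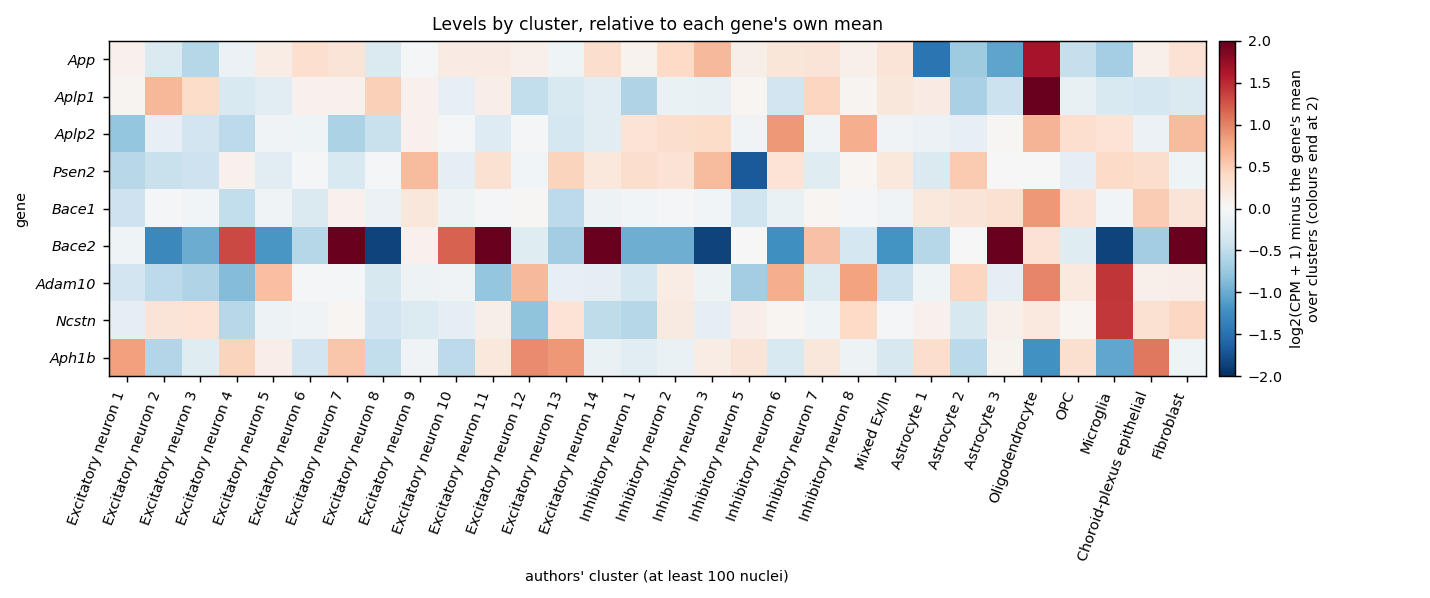
Levels of the 9 genes (rows) in the 30 authors' clusters with at least 100 nuclei (columns), as log2(CPM + 1) minus the gene's own mean over clusters, pooled over libraries. Red marks clusters above and blue clusters below the gene's mean. App and Aplp1 are reddest in oligodendrocytes (1465 and 595 CPM), Adam10 and Ncstn in microglia (320 and 63.6 CPM), and Bace2 in excitatory clusters 7, 11 and 14, astrocyte cluster 3 and fibroblasts.

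Bace2 was the member with the sharpest restriction by cluster. Excitatory cluster 7 had 33.3 CPM (84 UMIs), cluster 11 had 31.1 (49 UMIs) and cluster 14 had 21.3 (12 UMIs). Clusters 2, 3, 5, 8, 15 and 16 were at or below 0.811 CPM. Of these, clusters 15 and 16 had at most 17 and 12 nuclei in a library, so their low values do not show absence. Clusters 7, 11 and 14 are singled out after their values were seen. Astrocyte cluster 3 had 15.1 CPM (55 UMIs) against 1.41 in astrocyte cluster 1. No nucleus held more than 5 Bace2 UMIs in excitatory neurons or 3 in astrocytes.

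The genes whose level followed each member most closely over the 30 clusters were found by Pearson's r of log2(CPM + 1), pooled over libraries. App was nearest to Hdac11 (r = 0.86), a histone deacetylase, then Eml2 (0.83) and Asphd1 (0.82). Aplp1 was nearest to Tex52 (0.86), Gabrr2 (0.81) and Map4k5 (0.78). Aplp2 was nearest to Dusp10 (0.78), Pnoc (0.78), the precursor of the neuropeptide nociceptin, and Rdx (0.76).

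For the secretases, Bace1 followed Tulp4 (0.85), the ceramide synthase Cers2 (0.84) and the collagen receptor Ddr1 (0.81). Adam10 followed Cep350 (0.82), Mindy2 (0.80) and Cept1 (0.80). Ncstn followed Chmp3 (0.79), Setd2 (0.78) and Sf3b1 (0.77). The rarer genes had weaker partners: Psen2 with Mroh1 (0.71), Polr3gl (0.70) and Optn (0.68), Bace2 with Ccdc3 (0.74), the matrix proteoglycan Dcn (0.65) and Nnat (0.64), and Aph1b with Triqk (0.69), Acbd4 (0.67) and Ndufaf4 (0.65). These describe 30 clusters of the same libraries, which share depth and a few outlying classes. No partner was another member.

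Between AAV-VEGFC and AAV-GFP, no member passed the test in any class at these depths. The comparison paired the vectors within sham, the right side after TBI and the left side after TBI, with the quasi-likelihood test of edgeR on class sums as the test. Of the 81 pairs of member and class, 57 had enough counts to be tested: all 9 classes for App, Aplp2 and Adam10, 8 for Aplp1, 7 for Bace1, 6 for Ncstn, 4 for Aph1b, 3 for Psen2 and 2 for Bace2. Of these, 0 passed an adjusted p of 0.05, where 0.0281% of all gene and class pairs did. At an unadjusted p under 0.05, edgeR had 0 of 57, DESeq2 0 and limma-voom 0, against 5.41% of all pairs in edgeR. In all 4 comparisons the share of all pairs was taken in edgeR only. The DESeq2 and limma-voom counts thus have no background of their own, and nothing is read from them about the members.

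The median log2 fold of the 57 pairs was -0.03, and that of all pairs -0.0010. In oligodendrocytes, App had a log2 fold of 0.15 ± 0.09 (SE, adjusted p = 0.88 by edgeR), with each VEGFC library above its GFP partner. Aplp1 there had 0.14 ± 0.11 (adjusted p = 0.93). The 95% interval lay within 1 log2 unit on either side of 0 for 54 of 57 pairs, and within 0.5 for 29. The smallest adjusted p of a member was 0.81 by edgeR, for Bace1 in excitatory neurons at a log2 fold of 0.13 ± 0.08 (SE). Over its 7 classes Bace1 had log2 folds from -0.44 to 0.22.

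Injury on the same side was compared as TBI right against sham right, with 1 GFP and 1 VEGFC library on each side. No member passed the threshold in edgeR (0 of 57, where 0.0782% of all pairs passed). The unadjusted count was 2 of 57 in edgeR, 0 in DESeq2 and 2 in limma-voom, against 5.03% of all pairs in edgeR. The median log2 fold of the members was -0.05 and that of all pairs -0.000755.

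The pairs at an unadjusted p under 0.05 were both lower after injury. They were picked by p in these libraries, so a lack of overlap adds no separate evidence. Aplp2 in microglia was 287 and 331 CPM in the sham libraries and 157 and 165 in the TBI right libraries, and these groups of 2 did not overlap. Its log2 fold was -0.86 ± 0.36 (SE, adjusted p = 0.79 by edgeR), on 10 to 28 UMIs in these 4 libraries. The myelin markers Mbp, Mog and Mobp in microglia summed to 92.2 and 92.0 CPM in sham and to 31.4 and 47.3 in TBI right, on 2 to 9 UMIs per library, and their part in the result was not tested. Adam10 in astrocytes was 126 and 124 CPM in sham and 96.6 and 102 in TBI right, a log2 fold of -0.30 ± 0.13 (adjusted p = 0.62). Adam10 had a log2 fold below 0 in 8 of 9 classes, from -0.39 to 0.09, in classes that come from the same libraries. App in oligodendrocytes had a log2 fold of -0.0037 ± 0.11, with a 95% interval from -0.22 to 0.21.

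In the comparison of TBI left with sham right, injury and side differ together and cannot be told apart, and the sham libraries are those of the comparison above. Again 0 of 57 pairs passed in edgeR, where 0.104% of all pairs did. At an unadjusted p under 0.05 there were 2 in edgeR, 0 in DESeq2 and 2 in limma-voom, against 5.58% of all pairs in edgeR. Both pairs were in OPC, the dividing precursors of oligodendrocytes. App was 316 and 278 CPM in sham and 438 and 347 in TBI left, a log2 fold of 0.41 ± 0.17 (SE, adjusted p = 0.82 by edgeR). The summed oligodendrocyte markers in OPC were 820 and 438 CPM in sham and 829 and 700 in TBI left. Their part in the App result was not tested. Bace1 was 81.4 and 67.8 CPM in sham and 39.1 and 43.1 in TBI left, a log2 fold of -0.85 ± 0.32 (adjusted p = 0.81). The sham and TBI left libraries did not overlap for either gene, and Bace1 rests on 14 to 26 UMIs per library. Both pairs were picked by p in these libraries, so the lack of overlap adds no separate evidence.

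TBI left against TBI right compared both sides of injured mice, with the libraries used above. No pair passed (0 of 57, against 0.0318% of all pairs in edgeR). The unadjusted count was 1 in edgeR, 0 in DESeq2 and 2 in limma-voom, against 3.49% of all pairs in edgeR. The 1 pair was Bace2 in astrocytes, at a log2 fold of -1.11 ± 0.53 (SE, adjusted p = 1.0 by edgeR). It came from TBI GFP right, at 12.4 CPM (25 UMIs), beside 3.65 in TBI VEGFC right and 3.48 and 3.95 in the TBI left libraries. Without TBI GFP right the log2 fold was 0.17.

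**Figure D3:**
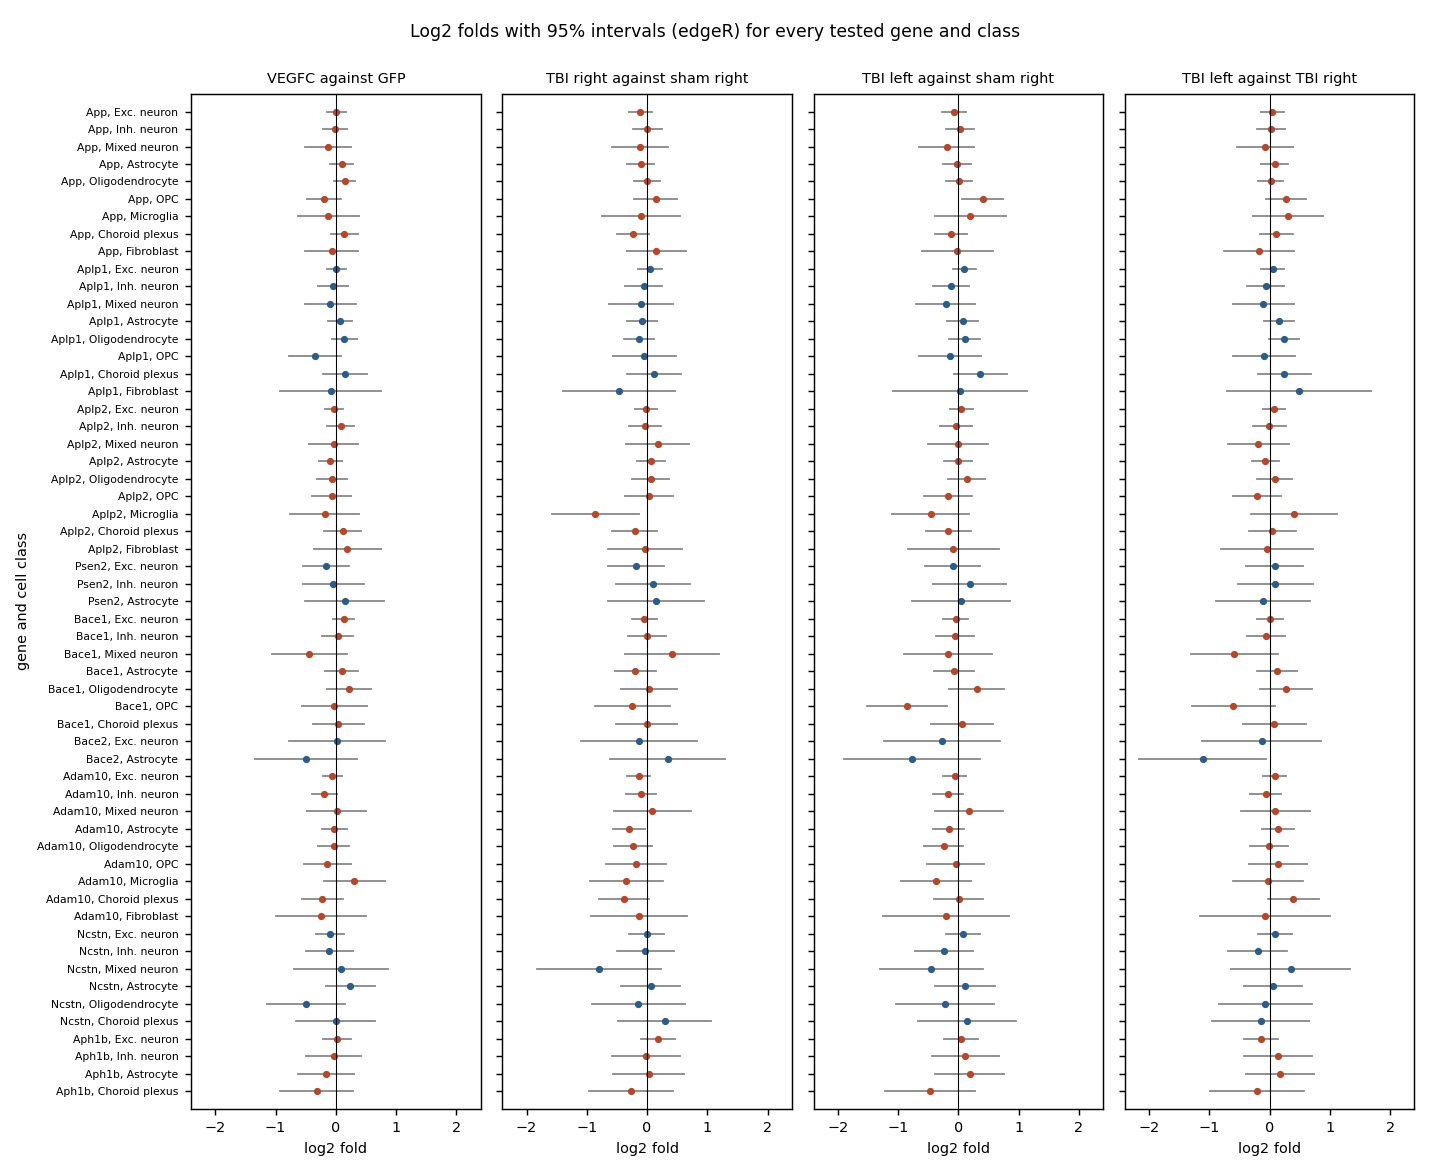
Log2 folds (x axis) of the 57 tested pairs of gene and class (rows) in the 4 comparisons, with 95% intervals from edgeR and colours that alternate from gene to gene. Points lie close to 0 for the abundant genes, and the widest interval reaches 1.19 log2 units to each side, for Aplp1 in fibroblasts in TBI left against TBI right.

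The same tests in the 23 clusters with at least 20 nuclei in every library gave 145 tested pairs per comparison, of which 0 passed in each. The background in clusters was 0.026%, 0.0504%, 0.101% and 0.0488% of pairs, in the order VEGFC, TBI right, TBI left and left against right. Unadjusted, 2, 3, 7 and 3 of the 145 members' pairs had p under 0.05 in edgeR, or 1.38%, 2.07%, 4.83% and 2.07%, against 5.35%, 5.05%, 5.42% and 3.94% of all pairs. Other tools were not run on clusters. The smallest unadjusted p was that of Bace1 in excitatory cluster 9 for VEGFC against GFP, at a log2 fold of 1.06 ± 0.35 (SE, adjusted p = 0.43).

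Whether the vector acted differently after injury was tested as an interaction, taking the TBI left and right libraries as replicates. None of 62 tested pairs passed in edgeR (0.221% of all pairs did), and 4 had an unadjusted p under 0.05, against 7.24% of all. Other tools were not run on it. The lowest was Bace2 in excitatory neurons, where the vector effect after TBI minus that after sham was -1.95 ± 0.47 on the log2 scale (SE, adjusted p = 0.17 by edgeR). The levels were 2.93 CPM in sham GFP, 7.25 in sham VEGFC, 6.51 in TBI GFP right, 4.59 in TBI GFP left, 2.75 in TBI VEGFC right and 4.03 in TBI VEGFC left. Sham VEGFC was thus above sham GFP, and both TBI VEGFC libraries were below both TBI GFP libraries.

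The Bace2-rich excitatory clusters 7, 11 and 14 made up 9.28% of excitatory nuclei in sham GFP, 9.28% in sham VEGFC, 6.26% in TBI GFP right, 4.75% in TBI GFP left, 3.59% in TBI VEGFC right and 8.78% in TBI VEGFC left. Without them the Bace2 level was 2.27, 3.72, 2.41, 2.21, 1.56 and 2.37 CPM in the same order, so the sham libraries kept their order while TBI VEGFC left no longer lay below TBI GFP left. Within cluster 7 alone, Bace2 was 8.26 CPM (6 UMIs) in sham GFP, 54.6 (27) in sham VEGFC, 63.8 (26) in TBI GFP right, 55.6 (15) in TBI GFP left, 8.89 (1) in TBI VEGFC right and 17.5 (9) in TBI VEGFC left. The share of these clusters and the level within them both varied between libraries. Their part in the difference was not tested.

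**Figure D4:**
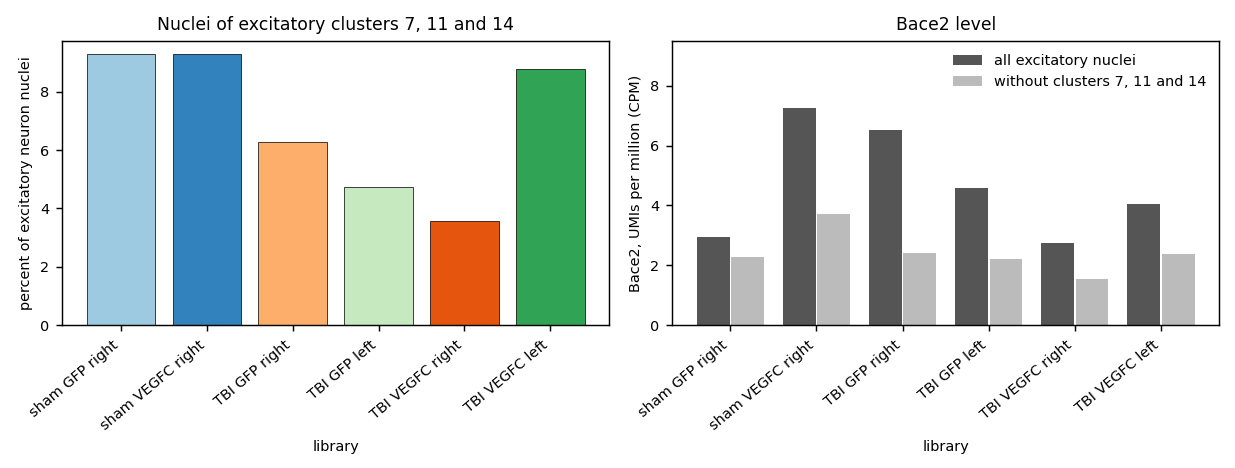
Left, nuclei of excitatory clusters 7, 11 and 14 as a percent of all excitatory neuron nuclei in each library. Right, Bace2 level (CPM) in all excitatory nuclei (dark bars) and without those clusters (light bars). The dark bars run from 2.75 to 7.25 CPM and the light bars from 1.56 to 3.72 CPM.

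The wider pathway was read from 65 genes in 5 lists. None of the 10 other secretase parts, the 24 adaptors and trafficking genes of App, or the 7 amyloid-degrading enzymes passed an adjusted p of 0.05 in edgeR in any of the 4 comparisons, where 0.0281%, 0.0782%, 0.104% and 0.0318% of all pairs did. At an unadjusted p under 0.05 there were 3, 3, 4 and 1 of 64 tested pairs of the secretase parts, 9, 9, 9 and 3 of 179 of the adaptors and 0, 0, 1 and 1 of 28 of the degrading enzymes, of which 6 were tested. The order is VEGFC, TBI right, TBI left and left against right, and the share of all pairs was 5.41%, 5.03%, 5.58% and 3.49%. Substrates of Bace1 had 1 call of 49 tested pairs in TBI right against sham right and 1 of 49 in TBI left against sham right, both lower. Substrates of Adam10 or gamma-secretase had 1 of 85 (lower) and 3 of 85 (2 higher, 1 lower). For VEGFC against GFP and for left against right, 0 pairs of either list passed in edgeR. At an unadjusted p under 0.05, in the order above, the Bace1 list had 7, 5, 5 and 4 of 49 pairs (14.3%, 10.2%, 10.2% and 8.16%) and the other list 8, 5, 11 and 5 of 85 (9.41%, 5.88%, 12.9% and 5.88%). These shares were above those of all pairs, and pairs of 1 gene in several classes come from the same libraries. The median log2 fold of the 5 lists lay between -0.10 and 0.02 in all 4 comparisons.

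Cdh2, the adhesion protein N-cadherin and a substrate of Adam10, was lower in oligodendrocytes of the TBI libraries than of sham. On the left, injury and side differ together. It was 399 and 307 CPM in sham GFP and sham VEGFC, 102 and 166 in TBI GFP right and TBI VEGFC right, and 150 and 182 in TBI GFP left and TBI VEGFC left. Every TBI library was below both sham libraries. The log2 fold was -1.42 ± 0.17 (SE, adjusted p = 1.75e-13 by edgeR) on the right and -1.07 ± 0.16 (adjusted p = 6.4e-07) on the left, against the same sham libraries. In oligodendrocytes the spread borrowed from other genes had a median of 8062 degrees of freedom, beside 2 residual ones. These edgeR p-values thus rest almost wholly on the borrowed spread. No oligodendrocyte nucleus held more than 6 Cdh2 UMIs. The left call was lost in DESeq2 (adjusted p = 1.0), without sham GFP (log2 fold -0.64, adjusted p = 0.30) and without TBI GFP left (-0.96, adjusted p = 0.059). The right call was past the threshold in each alternative tried, DESeq2 included (adjusted p = 0.034). Over the same libraries the summed excitatory neuron markers in oligodendrocytes were 77.7 and 77.4 CPM in sham, 106 and 79.2 in TBI right and 98.6 and 148 in TBI left, and their part in the result was not tested. The order of Cdh2 was not particular to oligodendrocytes. Excitatory neurons had 330 and 312 CPM in sham and 274 to 287 in TBI, and astrocytes 445 and 463 against 379 to 432. Microglia had the reverse order, 20.5 and 0 CPM against 24.1 to 35.4, on few UMIs. In the remaining classes sham and TBI libraries overlapped.

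The calls of Nrg3 did not hold without the top nucleus of each library, an alternative chosen after seeing the data. Nrg3, a neuregulin cut by Bace1, was called lower in astrocytes, at log2 folds of -1.27 ± 0.20 (SE, adjusted p = 0.00026 by edgeR) on the right and -0.79 ± 0.19 (adjusted p = 0.049) on the left. It was 70.1 and 41.4 CPM in sham, 26.9 and 18.2 in TBI right and 38.9 and 24.3 in TBI left, but 1 nucleus held 25 of the 102 UMIs of sham GFP and 1 held 32 of the 75 of sham VEGFC. Without the top nucleus of each library the log2 folds were -0.77 (adjusted p = 0.18) and -0.33 (adjusted p = 0.84). In DESeq2 neither passed, the right call was also lost without TBI GFP right (adjusted p = 0.22 by edgeR), and the left call was lost when any 1 of the 6 libraries was left out (adjusted p 0.063 to 0.51).

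The genes next in line were not past the threshold in edgeR. Among the secretase parts they were Psenen in astrocytes for VEGFC against GFP (log2 fold -0.49, adjusted p = 0.37) and Gsap in OPC for TBI left against sham right (-0.50, adjusted p = 0.81). Among the adaptors they were Dab1 in microglia for TBI left (2.45, adjusted p = 0.20) and Mapk8ip1 in oligodendrocytes for TBI right (0.64, adjusted p = 0.43). Among the degrading enzymes they were Ide in choroid plexus for TBI left (0.84, adjusted p = 0.59) and Ece2 in OPC for TBI right (1.04, adjusted p = 0.88). Among the substrates they were Nrg1 in OPC (0.57, adjusted p = 0.39), Chl1 in astrocytes (-0.34, adjusted p = 0.37), Erbb4 in astrocytes (0.40, adjusted p = 0.20) and Nlgn1 in microglia (2.20, adjusted p = 0.16), all for TBI left against sham right.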

How the data were processed

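Single-nucleus RNA of microdissected hippocampi was sequenced after droplet capture (10x Genomics, 3' end, per the labels), and Cell Ranger 7.0.1, Scanpy and mm10 are named in the submitters' processing notes. The authors deposited a matrix of unnormalized UMI counts. Their deposited metadata name each nucleus's library, class and cluster, with a doublet score (its tool was not given in the sources used here). That score ends at 0.099, so no doublet caller was run, and all nuclei were kept.

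Counts were summed per class, or per cluster, and library. Class sums ran from 45757 UMIs (fibroblasts) to 10758968 (excitatory neurons), so precision is lowest for the small classes. The sums were tested with edgeR 4.0.16 in R 4.3.3 (filterByExpr, TMM, quasi-likelihood) in an additive model of vector and tissue (sham, right after TBI, left after TBI), with 2 residual degrees of freedom, so the spread is largely borrowed across genes. Benjamini-Hochberg adjustment ran over all genes of a class in a comparison, at a threshold of 0.05. The step was also run on simulated counts, drawn with the spread fitted by edgeR and with changes only in well-counted genes. That run cannot show how the test does on genes with few counts. Limits for a count of 0 take 3 counts, and cover counting error only. DESeq2 1.42.0, limma-voom (limma 3.58.1), other scalings, no filter, a doublet score of at most 0.05, counts without the top nucleus, both hemispheres taken as replicates, and leaving out each library were tried.

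The members, the pathway and marker lists and the rule for named genes were chosen with earlier results of these data known. By that rule all members are named, with the 3 genes most like each, pathway genes past the threshold, and otherwise the 2 of each list with the smallest p. Likeness used genes with at least 20 CPM in 1 or more clusters, without clone names. Positions are from GENCODE M21, and promoter sequences from RefSeq. Some genes of the lists, with 2 calls among them, are counted but not reported by name here.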

Additional observations from a re-analysis of the deposited data

How the results depend on the processing

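No member passed an adjusted p of 0.05 in the 4 comparisons by class under the alternatives tried there, and the smallest adjusted p among them was 0.341. No alternative was run for the cluster tests or the interaction. The counts of called pathway pairs moved more. For VEGFC against GFP the count of 0 became 1 without the filter and 1 in limma-voom, and 0 to 3 with 1 library left out. For TBI right against sham right the count of 2 became 1 in DESeq2, 1 with a doublet score of at most 0.05, 1 to 3 with 1 library left out and 1 without the top nucleus of each pathway gene, an alternative chosen after seeing the data. For TBI left against sham right the count of 4 became 0 in DESeq2, 1 with the doublet limit, 2 with hemispheres as replicates, 0 to 5 with 1 library left out and 1 without those top nuclei. For TBI left against TBI right the count of 0 became 1 with RLE size factors, 1 with library totals, 1 in limma-voom and 0 to 2 with 1 library left out. The cause was not tested. Nrg3 in astrocytes for TBI left against sham right turned from -0.79 to 0.13 with the doublet limit (adjusted p = 0.97 by edgeR), and Bace2 in astrocytes for TBI left against TBI right from -1.11 to 0.17 without TBI GFP right, with -1.88 to 0.17 over the libraries left out. The highest class was the same for 9 of 9 members, 8 with the doublet limit (all but Psen2) and 8 without TBI VEGFC right (all but Aplp2). Fibroblasts could not be fitted under the doublet limit, since a library was left with no nuclei of that class. No paired analysis was possible because each replicate number occurs once, so none can serve as a block. The model itself matches libraries by vector and by tissue.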
